A study of Citrus trifoliata and Citrus junos with 20 samples.

Results

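csi-miR393 is the sweet orange (csi, Citrus sinensis) member of the MIR393 family, and it was followed here in the roots of 2 citrus rootstocks grown at 3 pH levels. It was taken by name from the list of known miRNAs, for the role of its family in auxin perception. Earlier results of these data were known when it was chosen. It is 1 of the 100 distinct miRNAs with reads in the deposited lists. The alkali-tolerant Ziyang xiangcheng (Citrus junos, Cj) and the alkali-sensitive trifoliate orange (Poncirus trifoliata, Pt) were raised as seedlings and then kept for 8 weeks in 4 L of hydroponic solution at pH 6.5, taken as normal, or at pH 8.0 or 9.5. Root tissue of 3 pooled seedlings gave each small RNA library, and there were 3 libraries for each rootstock and pH, or 18 in 6 groups. The pools of a group held different seedlings, so p-values measure the spread among pools of plants, and nothing in the sources says whether the pools came from separate vessels. Roots mix many cell types, so fewer cells of a type and less of the miRNA per cell cannot be told apart.

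In plants miR393 pairs with transcripts of the TIR1/AFB F-box proteins, the auxin receptors, and directs their cleavage. The receptors bind auxin together with Aux/IAA repressors and send these to degradation, which frees auxin response factors to act on their genes. In Arabidopsis roots this module is known for its part in lateral root growth. miR393 is 22 nt long in many plants, a length that is known to start the production of phased secondary siRNAs from a cleaved transcript.

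The mature sequences are shown first because the length and the seed (bases 2 to 8 from the 5′ end, in capitals) define what was counted. csi-miRN18 is the only other listed miRNA that the authors assigned to MIR393, and it was predicted from the reads.
csi-miR393: aUCCAAAGggaucgcauugauc
csi-miRN18: aUCAUGCUaucccuuuggauu
csi-miR393 has 22 bases and csi-miRN18 has 21. No other of the 100 listed miRNAs had the seed of csi-miR393, and none shared that of csi-miRN18. The listed hairpins show how both are related. In each as shown here, csi-miR393 is in capitals near the start, and the second stretch in capitals is csi-miRN18 or the stretch most like it.
csi-miR393 hairpin: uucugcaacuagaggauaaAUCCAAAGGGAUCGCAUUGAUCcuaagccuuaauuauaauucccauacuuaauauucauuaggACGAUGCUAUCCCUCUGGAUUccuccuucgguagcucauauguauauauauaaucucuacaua
csi-miRN18 hairpin: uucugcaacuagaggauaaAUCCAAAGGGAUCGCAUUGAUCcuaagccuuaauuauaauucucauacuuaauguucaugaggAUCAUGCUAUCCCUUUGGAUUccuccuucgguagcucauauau
The first is the whole listed hairpin of 145 bases, for which the list gives no position. The second is the last 125 of the 250 bases listed for csi-miRN18, a hairpin placed on the plus strand at chr7:31958580-31958829 of the Citrus sinensis genome, whose release is not named in the labels or methods and whose gene annotation was not used here. Over these 125 bases the hairpins were alike at 118. The csi-miR393 sequence was found whole in both, so its reads cannot be assigned to either hairpin. csi-miRN18 was found whole only in its own. It lies on the opposite arm, and the star sequence the authors listed for it is csi-miR393 moved by 1 base. The like stretch in the other hairpin differed from it at 3 of 21 bases, U2C, C3G and U15C, counted from the 5′ end of csi-miRN18 with its base first.

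The target sites show the pairing that the family is known for. The study's table of cleaved targets lists 2 transcripts for csi-miR393, Cs2g14270.1 and Cs5g32500.1, both annotated by the authors as TIR/AFB auxin receptors. Bases paired with csi-miR393 are in capitals, with 4 bases on each side.
Cs2g14270.1 site: atgaGACAATGCGATCCCTTTGGATgtcg
Cs5g32500.1 site: tggaGACAATGCGATCCCTTTGGATgtct
The 2 sites have the same 21 paired bases, and base 20 of csi-miR393 has no partner in them. The levels of these transcripts and the 2 degradome libraries were not analysed here.

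csi-miR393 had 2670 reads in the 18 libraries, 994 in Cj and 1676 in Pt, and from 34 to 249 reads in a library. It ranked between 46 and 63 of the 100 miRNAs, with a median of 54, so it was of middle abundance. The reads of all listed miRNAs ranged from 77255 in Pt pH 8.0 replicate 1 to 771522, and the second lowest library had 254842. That shallow library held the 34 reads of csi-miR393, and the fitted comparisons that rest on it were repeated without it. The repeats for the auxin-related and other named miRNAs were added after the data were seen. Levels are written as CPM, reads per 1000000 listed miRNA reads after TMM scaling, which adjusts for a few miRNAs that take most of the reads. The TMM factors ran from 0.993 to 1.33 in Cj and from 0.740 to 0.997 in Pt, so that the scaling itself moved with the rootstock. Of the 100 miRNAs, 96 passed the low-count filter and were tested, csi-miR393 and csi-miRN18 among them.

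In Cj at pH 6.5 csi-miR393 stood at 206.7, 304.1 and 263.5 CPM in replicates 1 to 3. In Cj at pH 8.0 it stood at 190.6, 187.8 and 201.0 CPM. In Cj at pH 9.5 it stood at 170.5, 302.3 and 308.3 CPM. Replicate 1 was the lowest library of Cj at pH 6.5 and again at pH 9.5, while the libraries at pH 8.0 lay close together. In Pt at pH 6.5 the level was 517.5, 278.4 and 382.9 CPM. In Pt at pH 8.0 it was 441.5 CPM in the shallow replicate 1, and 289.7 and 282.0 CPM in the others. In Pt at pH 9.5 it was 456.4, 447.7 and 452.9 CPM. The widest spread was in Pt at pH 6.5 and the narrowest in Pt at pH 9.5.

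**Figure D1:**
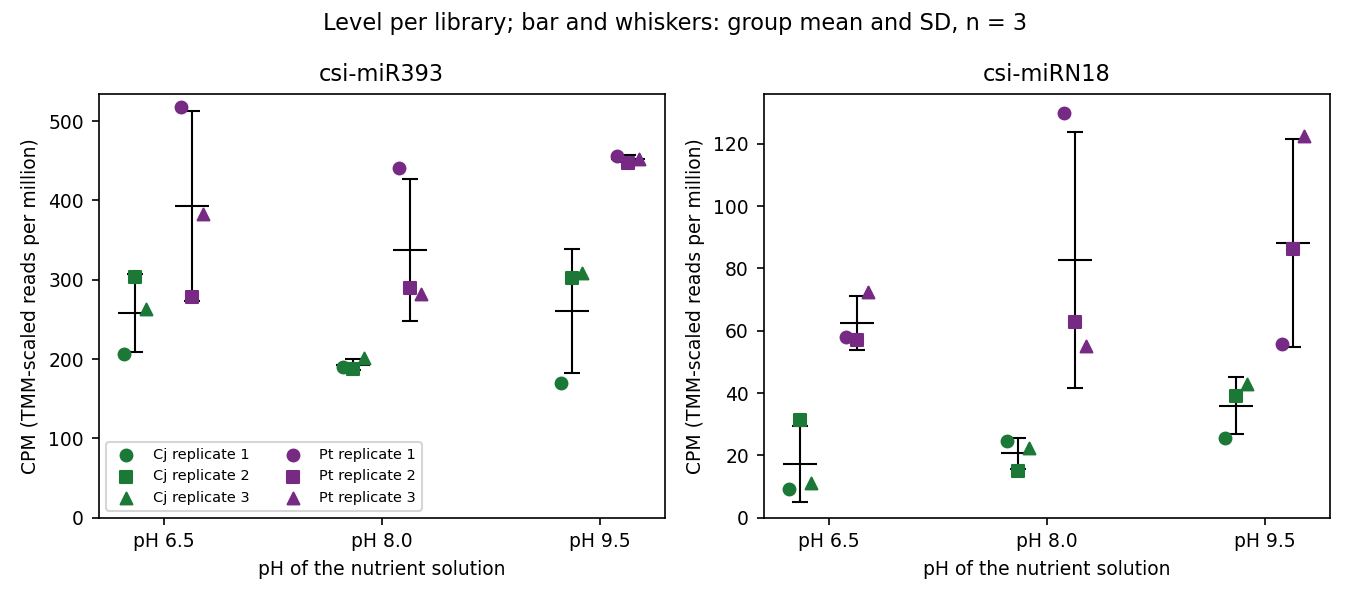
Level of csi-miR393 (left) and csi-miRN18 (right) in CPM, TMM-scaled reads per 1000000 listed miRNA reads, against the pH of the solution. Each point is 1 library, the marker gives its replicate number, and bars with whiskers are the mean and SD of 3 libraries. csi-miR393 lies between 170.5 and 308.3 CPM in Cj (green) and between 278.4 and 517.5 CPM in Pt (purple), and csi-miRN18 does not overlap between the rootstocks.

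The question of most interest for this miRNA was whether the rootstocks differ. From these same libraries the paper had already reported it, as csi-miR393a, as higher in Pt at all 3 pH levels, so the tests are not independent of that report. Reads of both rootstocks were mapped to the Citrus sinensis genome, so a difference in level and one in match to it cannot be told apart. At each pH the Pt libraries held on average more csi-miR393 than the Cj libraries. The mean was 392.9 ± 119.9 CPM (SD, n = 3) in Pt against 258.1 ± 48.9 CPM in Cj at pH 6.5, a fold change of 1.52 or 0.60 ± 0.25 on the log2 scale (SE; edgeR quasi-likelihood test, adjusted p = 0.0404). This call at pH 6.5 was lost when Cj replicate 1 or 3 or Pt replicate 1 or 3 was left out (adjusted p = 0.165, 0.0853, 0.184 and 0.0628), and also when the known miRNAs alone set the TMM factors (0.0666). At pH 8.0 it was 337.7 ± 90.0 CPM in Pt against 193.1 ± 6.95 CPM in Cj, a fold change of 1.66 or 0.73 ± 0.27 on the log2 scale (edgeR, adjusted p = 0.0214). At pH 9.5 it was 452.3 ± 4.42 CPM in Pt against 260.4 ± 77.9 CPM in Cj, a fold change of 1.73 or 0.79 ± 0.25 on the log2 scale (edgeR, adjusted p = 0.00817). The 3 differences lay within 1 SE of each other, and they share no libraries. Averaged over pH, csi-miR393 was 1.63-fold higher in Pt, 0.71 ± 0.15 on the log2 scale with a 95% interval of 0.40 to 1.01 (edgeR, adjusted p = 0.000123).

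The libraries of Pt and Cj did not overlap at pH 8.0 or at pH 9.5, but they did at pH 6.5, where Pt replicate 2 lay below Cj replicate 2. Over all pH levels 3 of the 9 Pt libraries were at or below the highest Cj library. Differences between the rootstocks were common in this table. At pH 6.5, 63.5% of the tested miRNAs passed the same test, and at pH 8.0 and at pH 9.5 59.4% did, with 82.3% for the mean over pH. Libraries that did not overlap were found for 70.8% of the tested miRNAs at pH 6.5 and for 65.6% at either other pH. The call of csi-miR393 was therefore that of most miRNAs here.

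The size of the difference moved with the scaling, and its direction did not. The deposited counts and TPM imply a total for each library, from 125084 to 1034566 reads. With these TPM totals as library sizes the log2 fold change was 0.38 at pH 6.5, 0.25 at pH 8.0 and 0.40 at pH 9.5. None of them passed the test (edgeR, adjusted p = 0.145, 0.419 and 0.126). The mean over pH was then 0.35 and still passed it (adjusted p = 0.0242). This scaling moved the median of all tested miRNAs by -0.36 as well. Relative to that median, csi-miR393 was 0.64 higher in Pt with these library sizes. With the 3 other scalings tried it was from 0.64 to 0.66 higher. A change of scaling moves all miRNAs by nearly the same amount, so these values had to agree and do not test the scaling. Deposited TPM of csi-miR393 averaged 199.1 in Cj, from 159.5 to 251.4 over its 9 libraries, and 258.7 in Pt, from 173.0 to 320.7. Its rank, which needs no scaling, ran from 54 to 63 in Cj and from 46 to 57 in Pt. Without the shallow library the difference at pH 8.0 was 0.52 and no longer passed the test (edgeR, adjusted p = 0.0952), and the mean over pH was 0.62 (adjusted p = 0.000198).

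**Figure D2:**
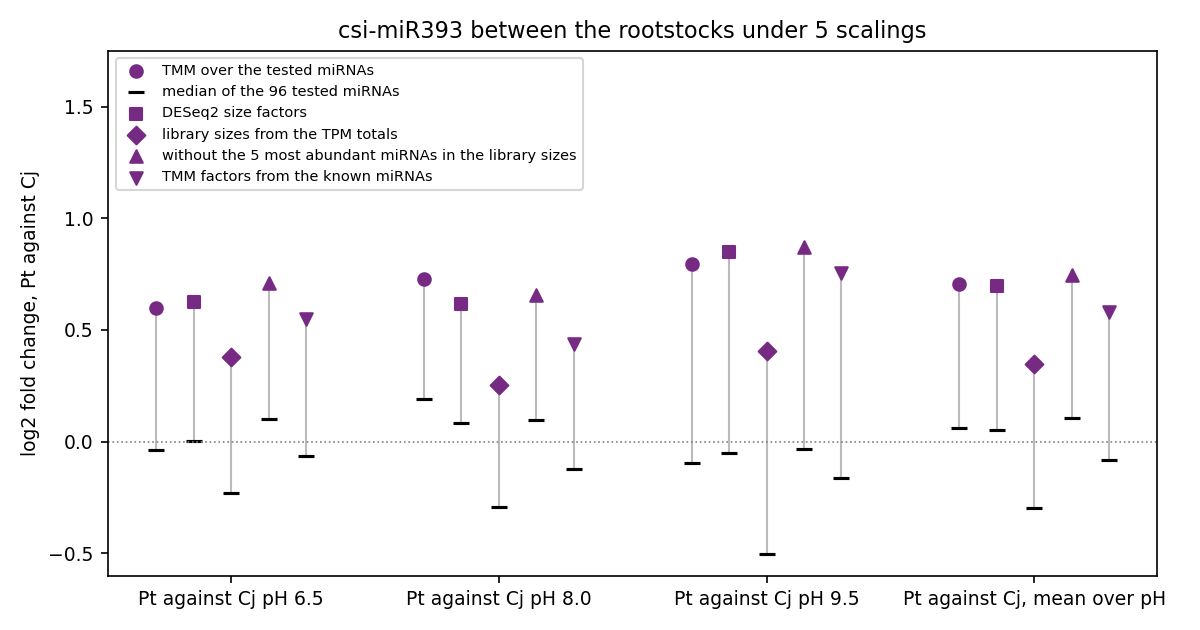
Log2 fold change of csi-miR393 between Pt and Cj (purple markers, 1 shape per scaling) at each pH and as the mean over pH, with the median of the 96 tested miRNAs under the same scaling as a black bar. Every marker lies above 0 and above its median, and the markers for the TPM totals are the lowest at each pH, at 0.38, 0.25 and 0.40.

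The comparisons between pH levels ask whether csi-miR393 responds to alkaline solution. None of the 6 passed the test in either rootstock. The unadjusted p was under 0.05 for 0 of the 6 in the main edgeR fit, 0 in DESeq2 and 1 in limma-voom (Pt at pH 9.5 against pH 8.0). At pH 8.0 against pH 6.5 the log2 fold change was -0.42 ± 0.26 in Cj (95% interval -0.96 to 0.12, edgeR, adjusted p = 0.228) and -0.29 ± 0.26 in Pt (-0.83 to 0.25, adjusted p = 0.665). At pH 9.5 against pH 6.5 it was 0.014 ± 0.26 in Cj (-0.52 to 0.54, adjusted p = 0.968) and 0.21 ± 0.25 in Pt (-0.30 to 0.72, adjusted p = 0.607). At pH 9.5 against pH 8.0 it was 0.43 ± 0.26 in Cj (-0.10 to 0.97, adjusted p = 0.310) and 0.50 ± 0.26 in Pt (-0.042 to 1.03, adjusted p = 0.215). The upper bounds reach 0.97 in Cj and 1.03 in Pt, so these data do not exclude a change of about that size. With library sizes from the TPM totals the unadjusted p in Pt was 0.0456 at pH 8.0 against pH 6.5 (edgeR, adjusted p = 0.162). At pH 9.5 against pH 8.0 it was then 0.0321 (edgeR, adjusted p = 0.106).

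In both rootstocks the lowest mean was at pH 8.0, with comparisons that share the libraries at each pH. In Cj the libraries at pH 8.0 all lay below those at pH 6.5, and in Pt they all lay below those at pH 9.5. Such separation was found for 53.1% of the tested miRNAs in the first comparison and for 32.3% in the second. Of the tested miRNAs, 36.5% passed the test in Cj at pH 8.0 against pH 6.5, 28.1% at pH 9.5 against pH 6.5 and 9.38% at pH 9.5 against pH 8.0. In Pt 9.38%, 30.2% and 17.7% did. Without the shallow library the log2 fold change in Pt was -0.40 at pH 8.0 against pH 6.5 (edgeR, adjusted p = 0.485) and 0.69 at pH 9.5 against pH 8.0 (adjusted p = 0.0783).

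The response to pH was also compared between the rootstocks, as the change in Pt minus the change in Cj. This difference was 0.13 ± 0.37 on the log2 scale for pH 8.0 against pH 6.5 (95% interval -0.63 to 0.89, edgeR, adjusted p = 0.803). It was 0.19 ± 0.36 for pH 9.5 against pH 6.5 (-0.54 to 0.93, adjusted p = 0.739). For pH 9.5 against pH 8.0 it was 0.064 ± 0.37 (-0.70 to 0.83, adjusted p = 0.956). With the shallow library left out the first was -0.048 (adjusted p = 0.986) and the third 0.27 (adjusted p = 0.909). A difference in response was thus not detected with 3 libraries a group, and the intervals do not show that the responses were alike. Among the tested miRNAs 10.4%, 18.8% and 6.25% passed these tests.

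**Figure D3:**
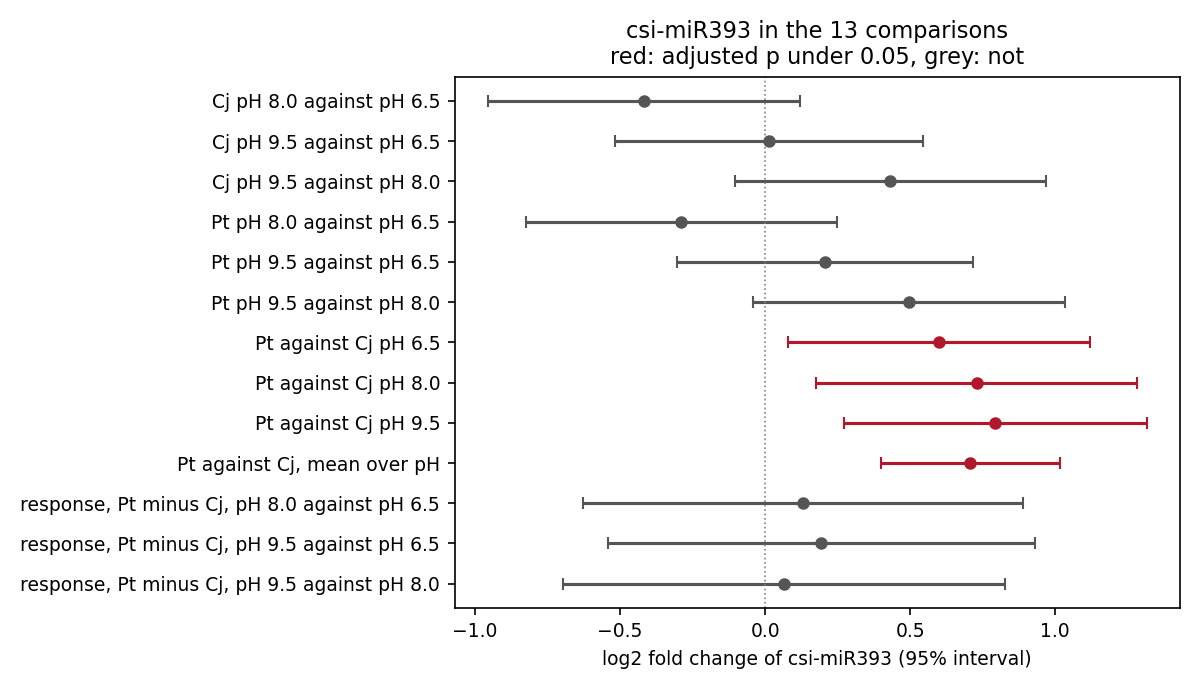
Log2 fold change of csi-miR393 with its 95% interval in the 13 comparisons, in red where the adjusted p was under 0.05 (edgeR quasi-likelihood test over 96 miRNAs). The 4 contrasts of Pt against Cj lie between 0.60 and 0.79, and the intervals of the 6 contrasts between pH levels and of the 3 differences in response include 0.

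Ordered by mean level, the groups ran from Cj at pH 8.0 (193.1 CPM) over Cj at pH 6.5 (258.1 CPM) and Cj at pH 9.5 (260.4 CPM) to Pt at pH 8.0 (337.7 CPM), Pt at pH 6.5 (392.9 CPM) and Pt at pH 9.5 (452.3 CPM). Of the 5 neighbouring pairs 4 overlapped in their libraries and 0 passed the test (edgeR, the smallest unadjusted p = 0.121). The libraries of a group spread more than counting alone gives, with a chi-square of 6.28 per degree of freedom. The variation beyond counting that edgeR fitted for csi-miR393 was 20.2% of its level, close to the 18.2% common to all tested miRNAs. Counting error by itself was 6.34% of the level in the library with most csi-miR393 reads and 17.1% in the shallow one.

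csi-miRN18, from the opposite arm, was scarcer and differed more between the rootstocks. In Cj it had 9.29, 31.2 and 11.2 CPM at pH 6.5, 24.6, 15.02 and 22.3 CPM at pH 8.0, and 25.7, 39.2 and 42.9 CPM at pH 9.5. In Pt it had 58.0, 57.0 and 72.4 CPM at pH 6.5, 129.9, 62.8 and 55.1 CPM at pH 8.0, and 55.9, 86.3 and 122.4 CPM at pH 9.5. No Pt library was at or below the highest Cj library, a separation over all pH levels that 29.2% of the tested miRNAs had in 1 direction or the other. The Cj values rest on 4 to 22 reads a library and the Pt values on 10 to 48.

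Between the rootstocks csi-miRN18 was higher in Pt by 1.82 ± 0.44 on the log2 scale at pH 6.5 (edgeR, adjusted p = 0.000669), by 1.74 ± 0.45 at pH 8.0 (adjusted p = 0.00152) and by 1.25 ± 0.39 at pH 9.5 (adjusted p = 0.00675). Averaged over pH it was 3.03-fold higher, 1.60 ± 0.25 on the log2 scale (edgeR, adjusted p = 1.62e-06). Leaving out the shallow library gave 1.48 at pH 8.0 (adjusted p = 0.00603) and 1.51 averaged over pH (adjusted p = 2.29e-06). With library sizes from the TPM totals the difference at pH 9.5 was 0.85 and missed the threshold (adjusted p = 0.0542). None of the 6 comparisons between pH levels passed the test for csi-miRN18, with an unadjusted p under 0.05 for 1 in edgeR, 0 in DESeq2 and 1 in limma-voom. Its log2 fold change in Cj at pH 9.5 against pH 6.5 was 1.03 ± 0.48 (edgeR, adjusted p = 0.0898), and without Cj pH 6.5 replicate 2 it was 1.79 and passed (adjusted p = 0.0176). In Cj all libraries at pH 9.5 lay above those at pH 8.0, as the libraries of 30.2% of the tested miRNAs were separated in that comparison.

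The share of csi-miRN18 in the MIR393 reads, csi-miRN18 over csi-miRN18 plus csi-miR393, does not depend on the library size. Like every value of Pt against Cj, it does depend on how well each rootstock matches the Citrus sinensis sequences, which was not tested. In Cj it was 4.30%, 9.32% and 4.07% at pH 6.5, 11.4%, 7.41% and 10.0% at pH 8.0, and 13.1%, 11.5% and 12.2% at pH 9.5. In Pt it was 10.1%, 17.0% and 15.9% at pH 6.5, 22.7%, 17.8% and 16.4% at pH 8.0, and 10.9%, 16.2% and 21.3% at pH 9.5. The Wilson 95% interval of a single library, which covers counting error only, was widest in the shallow one, from 12.8% to 36.99%. The mean was 9.26% ± 3.33 (SD, n = 9) in Cj and 16.5% ± 4.13 in Pt. The difference of 7.21 percentage points had p = 0.0015 in a two-sided exact permutation test of the rootstock labels within each pH, over 8000 arrangements. Without the shallow library it was 6.58 points (exact permutation p = 0.00175).

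At a single pH the share was 8.42 points higher in Pt at pH 6.5 and 9.36 points higher at pH 8.0, with no overlap of the libraries (exact permutation p = 0.1 in both, the smallest that 3 against 3 can give). At pH 9.5 the difference was 3.85 points and the libraries overlapped (exact permutation p = 0.4). The group means in Cj were 5.89% ± 2.97 at pH 6.5, 9.61% ± 2.04 at pH 8.0 and 12.3% ± 0.81 at pH 9.5 (SD, n = 3). In Pt they were 14.3% ± 3.72, 19.0% ± 3.34 and 16.1% ± 5.18. A change of the share with pH was not tested.

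**Figure D4:**
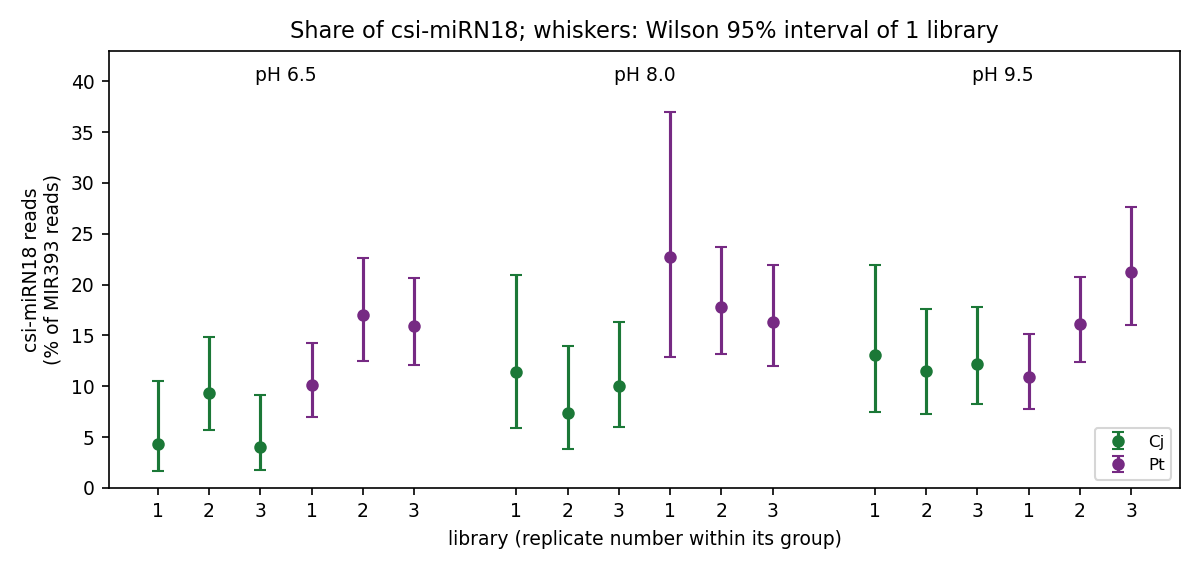
Share of csi-miRN18 in the reads of csi-miR393 plus csi-miRN18, in percent, for each of the 18 libraries with its Wilson 95% interval. Shares run from 4.07% to 13.1% in Cj (green) and from 10.1% to 22.7% in Pt (purple), and the rootstocks overlap only at pH 9.5.

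csi-miR393 is 1 of 11 listed miRNAs of families that act in auxin signalling. They were taken by assigned family and are not 11 independent precursors. csi-miRN18 is from the arm opposite csi-miR393, and the hairpin of csi-miRN19 holds csi-miR390 whole. Both have another seed than csi-miR393 and csi-miR390, and whether they act on the targets of their family was not tested. MIR160 and MIR167 pair with transcripts of auxin response factors, MIR164 with those of NAC factors such as NAC1 in Arabidopsis, and MIR390 with TAS3, whose siRNAs act on further auxin response factors. Averaged over pH, 4 of the 11 were higher in Pt and 5 lower (edgeR, adjusted p under 0.05), where 42.7% of all tested miRNAs were higher and 39.6% lower. Their median log2 fold change was -0.22, against 0.061 for all tested miRNAs. With the TPM totals 2 were higher and 7 lower, and of all tested miRNAs 28 of 96 were then higher and 47 lower. At pH 6.5, 2 of the 11 were higher and 5 lower, beside 29.2% and 34.4% of all. The lower ones at pH 6.5 and averaged over pH include csi-miRN28, with 140 reads in Cj and 59 in Pt, 2 of them at pH 6.5. It passed the low-count filter only through its Cj libraries, so its place among the lower ones is no support for a direction of the list. At pH 8.0, 3 were higher and 4 lower, beside 32.3% and 27.1%, and without the shallow library 2 were higher and 4 lower, beside 31.2% and 27.1%. The miRNA no longer counted there was csi-miR393 itself. At pH 9.5, 3 were higher and 4 lower, beside 29.2% and 30.2%. With the TPM totals 1 was higher and 6 lower at pH 6.5, beside 25% and 40.6% of all. At pH 8.0 2 were then higher and 5 lower, beside 21.9% and 40.6%, and at pH 9.5 0 were higher and 6 lower, beside 17.7% and 50%.

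The auxin-related miRNAs that passed the test at every pH were csi-miR393 and csi-miRN18, both higher in Pt, and 3 that were lower, whose sequences are shown for comparison with the seed in capitals.
csi-miR390: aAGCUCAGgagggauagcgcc
csi-miRN19: cGCUAUCUauccugaguuuuc
csi-miRN43: uGCCUGGCucccuguaugcuu
csi-miR390 ranged from 2671 to 5288 CPM in the Cj libraries and from 1530 to 2299 CPM in the Pt libraries. It was lower in Pt with a log2 fold change of -1.005 ± 0.11 for the mean over pH (edgeR, adjusted p = 5.58e-09). csi-miRN19 is of the same family, and csi-miR390 was found whole in its hairpin. Its mean fold change was -1.23 ± 0.14 (adjusted p = 1.44e-08), from 475.9 to 1231 CPM in Cj and from 233.7 to 459.5 CPM in Pt. csi-miRN43 of the MIR160 family ranged from 1240 to 4195 CPM in Cj and from 443.4 to 1395 CPM in Pt, so its libraries overlapped over all pH levels. Its mean fold change was -1.66 ± 0.12 (adjusted p = 7.55e-13). These 3 kept the direction and the call at each pH under the 4 other scalings, and at pH 8.0 and averaged over pH also without the shallow library.

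**Figure D5:**
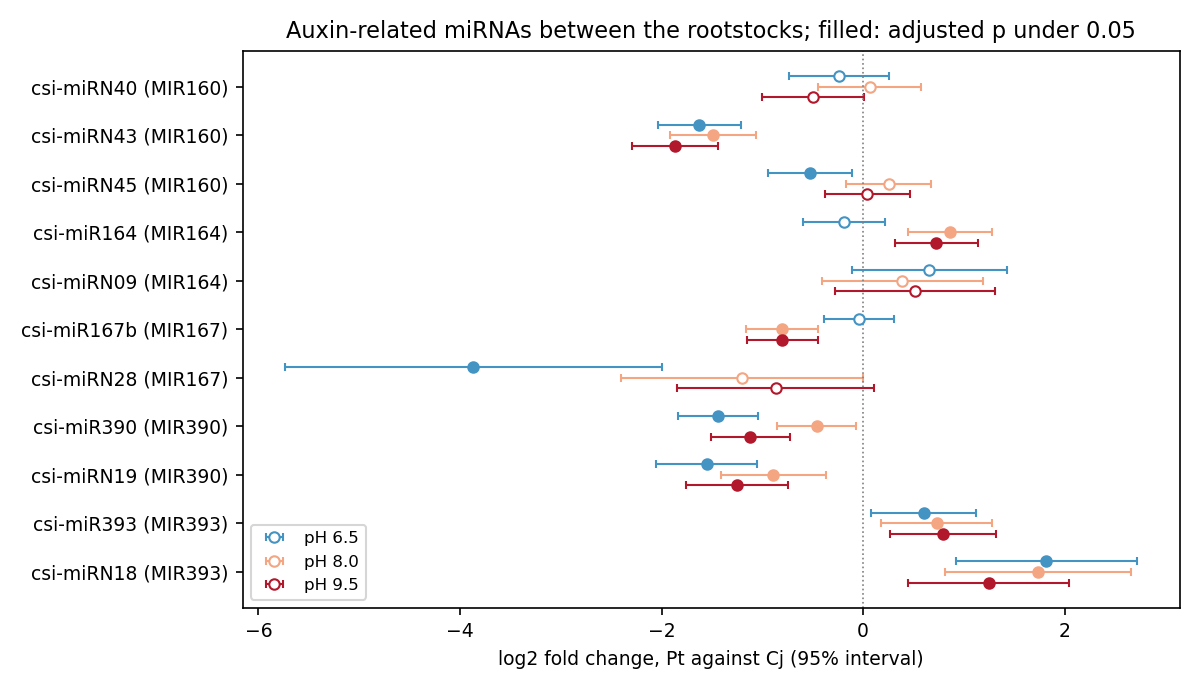
Log2 fold change of Pt against Cj with its 95% interval for the 11 auxin-related miRNAs at pH 6.5 (blue), pH 8.0 (orange) and pH 9.5 (red), filled where the adjusted p was under 0.05. Both MIR393 miRNAs lie to the right of 0 and csi-miRN43, csi-miR390 and csi-miRN19 to the left at every pH.

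The same 11 miRNAs were counted between pH levels. At pH 8.0 against pH 6.5 6 of the 11 were lower in Cj and 0 higher (edgeR), where 25.0% of all tested miRNAs were lower and 11 of 96 higher, and their median log2 fold change was -0.63 against 0.029 for all. With the other scalings between 4 and 6 were lower and 1 was higher, where between 13.5% and 21.9% of all were lower and between 14.6% and 22.9% higher. At pH 9.5 against pH 6.5 3 were lower in Cj, where 15.6% of all were lower. csi-miR393 was in neither count. In Pt 1 of the 11 was higher at pH 8.0 against pH 6.5 and 0 lower, beside 5.21% and 4.17% of all. With the TPM totals 1 was higher and 3 lower, beside 5.21% and 17.7%, and when the known miRNAs alone set the TMM factors 0 were higher and 2 lower, beside 4.17% and 6.25%. At pH 9.5 against pH 6.5 1 was higher in Pt and 2 lower, beside 16.7% and 13.5%. With the other scalings 3 were lower there, beside between 14.6% and 20.8% of all. In both Pt comparisons against pH 6.5 the higher miRNA of the main fit was csi-miRN28. In Pt at pH 6.5 it had 2 reads and a mean of 1.43 CPM, below the 4.75 to 6.44 CPM at which 3 reads stand there. At pH 9.5 against pH 8.0 1 of the 11 was lower in Pt, beside 11.5% of all, and 0 passed the test in Cj, where 9.38% of all did. With the TPM totals 1 was higher in Cj, beside 4.17% of all. With each of the remaining scalings 1 was lower in Cj, beside 8.33%. These counts in Pt at pH 8.0 against pH 6.5 and at pH 9.5 against pH 8.0 did not move when the shallow library was left out.

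As a 22-nt miRNA that starts phased siRNAs, csi-miR393 can be set beside csi-miR1515, of a family known in legumes to act on a Dicer-like transcript, and csi-miR482a-3p, csi-miR482b and csi-miR482c, whose family acts on disease resistance genes of the NBS-LRR type. Averaged over pH, the log2 fold change of Pt against Cj was -0.83 ± 0.093 for csi-miR482a-3p (edgeR, adjusted p = 8.39e-09) and -0.76 ± 0.097 for csi-miR482c (adjusted p = 9.09e-08). It was 0.39 ± 0.11 for csi-miR482b (adjusted p = 0.00208), which the TPM totals reduced to 0.034 (adjusted p = 0.753). For csi-miR1515 it was 0.0022 ± 0.22 (adjusted p = 0.9996). csi-miR1515 had 59.7 ± 24.4 CPM (SD, n = 9) in Cj and 58.0 ± 15.5 CPM in Pt. Leaving out the shallow library gave -0.015 for csi-miR1515 and changed no call of the 4. Among the miRNAs compared here, which leave out other listed 22-nt members of MIR482 such as csi-miRN48 and csi-miRN51, differences between the rootstocks thus went in both directions.

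The miRNAs most like csi-miR393 were ranked by the lower of the Pearson correlations of log2 CPM over the 9 Cj and over the 9 Pt libraries, which share library scaling and depth. csi-miR156, whose family acts on SPL factors, had r = 0.66 in Cj and 0.60 in Pt. csi-miR172a-3p, of a family that acts on AP2-like factors, had 0.84 and 0.60. csi-miR319, of a family that acts on TCP factors, had 0.81 and 0.59. csi-miRN51 of the MIR482 family had 0.57 and 0.79, and csi-miR399d, of a family that acts on the PHO2 transcript in phosphate balance, had 0.61 and 0.53. csi-miRN18 was eighth, with 0.48 and 0.44. Counting error on its 4 to 22 reads a library in Cj and 10 to 48 in Pt can lower these correlations. The reads of csi-miR393 also cannot be assigned to a single hairpin. The rank of csi-miRN18 therefore cannot show how closely the arms of a hairpin vary together. The order moved without the shallow library: csi-miRN48 came first with 0.86 and 0.72, csi-miR156 second with 0.69 and 0.79, csi-miR399d ninth with 0.60 and 0.47, and csi-miRN18 eleventh with 0.51 and 0.44. The likeness within rootstocks did not extend to the difference between them for csi-miR156. Its log2 fold change of Pt against Cj was -0.42 ± 0.10 averaged over pH (edgeR, adjusted p = 0.000560) and -0.44 without the shallow library (adjusted p = 0.00122). csi-miR172a-3p, csi-miR319, csi-miRN51 and csi-miR399d were higher in Pt, as csi-miR393 was, where 42.7% of all tested miRNAs were higher averaged over pH. Their log2 fold changes, in that order, were 1.23, 0.67, 0.41 and 0.90 (edgeR, adjusted p = 2.68e-07, 6.39e-07, 8.84e-05 and 3.48e-06).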

How the data were processed

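Small RNA from roots was measured in 18 libraries. The authors made libraries with a NEBNext kit, removed other RNA classes with Bowtie, mapped reads to the Citrus sinensis genome (release not given in the sources used here), took known miRNAs from miRBase and predicted others with miRDeep2. The deposited counts are whole reads per mature miRNA. By the authors' formula the deposited TPM are these counts divided by the mapped reads of the library and scaled by a constant, with no term for length. The totals that the TPM imply, at most 1034566 reads, fall well short of the small RNA reads that the paper mapped to the genome. Which reads they cover is therefore not known. Of 103 lines that name a miRNA, 3 repeats were dropped, which left 100. 1 further line was blank.

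The fit used edgeR 4.0.16 (R 4.3.3), with library sizes from the listed reads, TMM factors, filterByExpr (minimum count 10, minimum total 15), 1 mean per group, quasi-likelihood tests of 13 contrasts, Benjamini-Hochberg adjustment over 96 miRNAs, called under 0.05, all on the counts. The study used DESeq 1.10.1 between pairs of groups, for which edgeR stands in. SEs come from the fold change and its F statistic. The script was tested on simulated data. A library puts 3 reads at between 4.73 and 39.0 CPM, which covers counting error only, since reads carry no molecular tags. Shares were compared with exact permutation tests in Python 3.11.15. DESeq2 1.42.0, limma-voom 3.58.1, other scalings, filters, fits and left-out libraries were tried as alternatives.

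The rule for naming miRNAs took csi-miR393, csi-miRN18, 11 auxin-related miRNAs with values for those called between the rootstocks at every pH, 4 further triggers of phased siRNAs and the 5 most like csi-miR393. The miRNA and the lists were chosen with earlier results of these data known. Replicate numbers were not taken as pairs in the main fit. Same-numbered libraries of 2 groups deviated together with r from -0.29 to 0.44, and every r was over 0.1 in 1 of 15 pairs of groups. These correlations cannot show whether same-numbered libraries were grown or processed together. The degradome libraries were not analysed here.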

Additional observations from a re-analysis of the deposited data

How the results depend on the processing

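The difference between the rootstocks averaged over pH kept its direction and its call for csi-miR393 under all 27 alternatives, between 0.35 and 0.82 on the log2 scale. At a single pH the direction was kept as well, but calls were lost. With library sizes from the TPM totals the log2 fold changes were 0.38, 0.25 and 0.40 in order of rising pH, and with TMM taken over known miRNAs alone they were 0.55 and 0.44 at pH 6.5 and 8.0 (edgeR, adjusted p = 0.0666 and 0.178). This second scaling moved the median of all miRNAs by -0.31 at pH 8.0. Leaving out 1 library gave 0.41 to 0.74 at pH 6.5 and 0.52 to 0.78 at pH 8.0. The call at pH 6.5 was lost without Cj replicate 1 or 3 or Pt replicate 1 or 3 (0.46, 0.58, 0.41 and 0.62), and that at pH 8.0 without Cj replicate 1 or 2 or Pt replicate 1 (0.64, 0.64 and 0.52). At pH 9.5 leaving out 1 library gave 0.63 to 1.00 and every call was kept. The cause of these losses was not tested.

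No comparison between pH levels passed the test for csi-miR393 under any alternative. Those near 0 changed sign. In Cj at pH 9.5 against pH 6.5 the value was -0.014 with DESeq2 size factors and in DESeq2 and -0.017 in limma-voom, and -0.15 to 0.22 with 1 library left out. The difference in response at pH 8.0 against pH 6.5 was -0.0060 with DESeq2 size factors, -0.13 with the TPM totals, -0.052 without the 5 most abundant miRNAs, -0.11 with factors from the known miRNAs and -0.0055 in DESeq2, and -0.048 to 0.27 with 1 library left out. That at pH 9.5 against pH 8.0 was -0.024 with both MIR393 miRNAs summed and -0.023 to 0.34 with 1 library left out. For csi-miRN18, Pt at pH 8.0 against pH 6.5 was -0.12 with the TPM totals and -0.062 to 0.35 with 1 library left out, Cj in that comparison -0.080 to 0.97, and the difference in response -0.84 to 0.21. The difference in share was 6.35 to 8.08 percentage points with 1 library left out (exact permutation p at most 0.003) and 0.96 as a log2 ratio of the reads (p = 0.0015). With the replicate number as a block the values were 0.59, 0.71 and 0.79 in order of rising pH and 0.70 averaged over pH, the share gave 7.21 points (exact sign-flip permutation p = 0.0078), and no call changed.

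Depth limits the shallow library, Pt pH 8.0 replicate 1, most: its 34 and 10 reads of csi-miR393 and csi-miRN18 carry a large counting error. Leaving it out, an alternative added after the data were seen for the other auxin-related miRNAs, turned 2 of their values near 0, csi-miRN45 in Pt at pH 9.5 against pH 8.0 (-0.0072) and the difference in response of csi-miR167b in that comparison (-0.056).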

Other observations

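Of the 11 auxin-related miRNAs, 3 differed between the rootstocks in their response to pH where no such difference was detected for csi-miR393. They were chosen after their values were seen. The same tests passed for 3 of the 11 at pH 8.0 against pH 6.5, beside 10.4% of all tested miRNAs, and for 2 of the 11 at pH 9.5 against pH 6.5, beside 18.8%. From pH 6.5 to pH 8.0 the change of csi-miR164 in Pt minus that in Cj was 1.05 on the log2 scale (edgeR, adjusted p = 0.0149), that of csi-miR390 0.98 (adjusted p = 0.0149) and that of csi-miR167b -0.76 (adjusted p = 0.0391). From pH 6.5 to pH 9.5 it was 0.91 for csi-miR164 (adjusted p = 0.0198) and -0.76 for csi-miR167b (adjusted p = 0.0231), while csi-miR390 had 0.32 and did not pass (adjusted p = 0.416). The calls and directions held under the 4 other scalings. Without the shallow library the change from pH 6.5 to pH 8.0 was 1.14 for csi-miR164 (adjusted p = 0.00713) and 0.91 for csi-miR390 (adjusted p = 0.0319), while csi-miR167b had -0.70 and no longer passed (adjusted p = 0.0925).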
